A study of Mus musculus with 36 samples.

Results

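The genes described here are the 3 lipins Lpin1, Lpin2 and Lpin3 and 7 genes of triglyceride assembly around them, Gpam, Gpat3, Agpat2, Dgat1, Dgat2, Mogat1 and Pnpla3. They were picked by name from the gene expression table, which gave 10 of 56748 genes, each with 1 entry. The RNA came from epididymal visceral white adipose tissue (visWAT) and liver of 18 male mice on a C57BL/6J background, with both tissues taken from every mouse. MlklAdi-KO mice carried floxed Mlkl alleles and Cre recombinase under an adiponectin promoter, which is active in mature adipocytes, so that the necroptosis effector Mlkl was targeted in adipocytes and not in hepatocytes. WT mice were littermates with the floxed alleles and no Cre, so the floxed alleles were common to all groups. From 16 weeks of age the mice received normal chow diet (NCD) or high-fat diet (HFD) for 16 weeks. The paper describes a last week in metabolic cages for groups of the same sizes. It does not say whether those were the sequenced mice. There were 4 WT and 4 MlklAdi-KO mice on NCD and 5 of each genotype on HFD, which gave 36 libraries in 8 groups.

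Triglyceride is built on glycerol 3-phosphate. Glycerol phosphate acyltransferases (Gpam on the outer mitochondrial membrane, Gpat3 in the endoplasmic reticulum) attach the first fatty acid, and the acylglycerol phosphate acyltransferase Agpat2 attaches the next to form phosphatidic acid. Lipins are the phosphatases that remove the phosphate from phosphatidic acid and release diacylglycerol, and lipin 1 also acts in the nucleus as a transcriptional coactivator. Dgat1 and Dgat2 add the last fatty acid. Mogat1 makes diacylglycerol by another route, from monoacylglycerol, and Pnpla3 encodes a lipid droplet protein with lipase and transacylase activity. Loss of lipin 1 or of Agpat2 causes lipodystrophy, which shows the weight of these steps in adipose tissue.

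Between 20875463 and 30322171 reads per library were assigned to genes. The deposited expression values were scaled to a size per library that was not this read number. It was 0.737 to 0.812 times these reads in liver and 1.01 to 1.40 times in visWAT, so levels in the tissues are not scaled alike. Hepatocyte markers summed to between 55864 and 84899 FPKM (fragments per kilobase of gene, scaled to that size) in the livers and to between 24.3 and 1978 FPKM in visWAT. Adipocyte markers summed to between 4695 and 21815 FPKM in visWAT and to between 549 and 1894 FPKM in liver. The adipocyte list includes Pck1, which was also expressed in liver, so its sum in liver does not measure adipocytes. Plin1 and Retn had no reads in WT NCD livers, where the sum was still 1118 to 1894 FPKM. Mlkl, the targeted gene, was 2.53 ± 0.172 FPKM in MlklAdi-KO HFD visWAT against 5.29 ± 0.652 FPKM in WT (SD, n = 5 each, log2 fold change −0.83, limma adjusted p = 0.00162). In NCD visWAT it was 2.19 ± 0.222 against 3.99 ± 1.23 FPKM and did not pass (SD, n = 4 each, −0.61, limma adjusted p = 0.916). In liver Mlkl was 2.29 ± 0.666 against 2.72 ± 0.155 FPKM on HFD (limma adjusted p = 0.506). A pair of WT NCD visWAT libraries stood apart. That of mouse 182 had Mlkl at 2.29 FPKM, inside the MlklAdi-KO NCD range of 1.96 to 2.49 FPKM, and in that of mouse 183 seminal vesicle and epididymis markers took 18.5% of the reads. Comparisons that include them are also given without them where a call or a value changed.

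Lpin1 lies on chromosome 12 (GRCm39, 16585670 to 16696967, minus strand), Lpin2 on chromosome 17 (71489555 to 71556812, plus strand) and Mogat1 on chromosome 1 (78487628 to 78514810, plus strand). These were the 3 members whose levels in MlklAdi-KO HFD liver all lay below those in WT, so the 250 bases before their RefSeq start sites are shown. Lpin1, Lpin2, Dgat1 and Dgat2 overlap no other annotated gene. Agpat2 overlaps Egfl7 on the opposite strand, at 18.7 FPKM on average over the libraries. Pnpla3 overlaps the microRNA gene Mir6392 on the same strand, at 13.3 FPKM on average and 54.9 FPKM in WT NCD visWAT. It also overlaps predicted genes at lower levels. Mogat1 overlaps BC035947 on the opposite strand. Reads of Agpat2, Pnpla3 and Mogat1 may therefore be shared. In HFD liver BC035947 was at most 0.297 FPKM. RefSeq promoters (build GRCm38.p6) were found for 8 of the 10 members, 12 promoters in all. Dgat1 and Dgat2 were not matched. The stretches cover chr12:16610967-16611216 (minus strand) for Lpin1, chr17:71183282-71183531 (plus strand) for the most upstream of 3 Lpin2 promoters, and chr1:78510810-78511059 (plus strand) for Mogat1, all in GRCm38.p6. Capitals mark matches on either strand to the E-box CACGTG, the core TGACG of the cAMP element, the core AGAACA of the glucocorticoid element, the D-box TTATGNAA, the nuclear receptor core AGGTCA, the CCAAT box, the GC box GGGCGG or the sterol element TCACNCCAC.
Lpin1: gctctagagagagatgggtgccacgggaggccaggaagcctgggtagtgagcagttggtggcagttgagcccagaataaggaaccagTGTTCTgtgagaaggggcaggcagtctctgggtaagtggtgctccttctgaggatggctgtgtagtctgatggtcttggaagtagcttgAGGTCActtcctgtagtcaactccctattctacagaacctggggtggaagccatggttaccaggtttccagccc
Lpin2: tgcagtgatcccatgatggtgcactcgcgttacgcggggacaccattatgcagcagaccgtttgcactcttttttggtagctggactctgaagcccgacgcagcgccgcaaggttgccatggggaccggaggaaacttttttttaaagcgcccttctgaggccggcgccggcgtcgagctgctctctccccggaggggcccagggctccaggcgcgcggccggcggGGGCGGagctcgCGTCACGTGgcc
Mogat1: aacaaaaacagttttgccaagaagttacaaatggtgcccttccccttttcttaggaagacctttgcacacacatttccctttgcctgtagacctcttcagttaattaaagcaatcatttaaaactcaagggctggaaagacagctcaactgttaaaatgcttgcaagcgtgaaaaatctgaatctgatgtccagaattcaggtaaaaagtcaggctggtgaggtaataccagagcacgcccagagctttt
The Lpin1 stretch held a glucocorticoid core in reverse orientation, TGTTCT, and a nuclear receptor core, which occurred in 16.1% and 14% of the 32851 promoters of the same length. The Lpin2 stretch held an E-box (6.02% of promoters), a cAMP core overlapping it (17.8%) and a GC box (32.7%). None of the 8 motifs occurred in the Mogat1 stretch. A match describes the letters and is not evidence of binding.

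Lpin1 was the lipin shared by both tissues, Lpin2 belonged to the liver, and Lpin3 was low in both. In liver, Lpin1 was 68.4 ± 23.8 FPKM in WT NCD, 58.2 ± 3.43 in MlklAdi-KO NCD, 66.8 ± 15.9 in WT HFD and 23.4 ± 6.43 in MlklAdi-KO HFD (SD, n = 4, 4, 5 and 5). The first 3 of these groups overlapped. In visWAT, Lpin1 was 43.6 ± 6.95, 38.2 ± 2.13, 22.3 ± 3.28 and 26.2 ± 4.97 FPKM in the same order of groups. The order across tissues depended on the scale. MlklAdi-KO HFD liver overlapped both HFD visWAT groups in FPKM, but with libraries scaled to an equal FPKM sum (TPM) it was at 33.3 to 56.7 TPM, below all HFD visWAT libraries at 72.0 to 126 TPM. Lpin2 was 64.5 ± 12.1, 62.5 ± 6.03, 56.0 ± 7.25 and 33.4 ± 9.02 FPKM in liver and between 0.843 and 1.65 FPKM in every visWAT library. Lpin3 means ranged from 1.94 to 3.89 FPKM over all 8 groups, and each group overlapped its neighbour in that order, whereas in TPM all 18 livers (3.34 to 6.30) lay below all HFD visWAT libraries (7.27 to 14.1).

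Lpin1 and Lpin2 contributed similar amounts of lipin mRNA in most livers. In WT HFD liver, Lpin1 made up 53.2% ± 3.90 of the summed lipin FPKM and Lpin2 45.2% ± 3.68 (SD, n = 5). In MlklAdi-KO HFD liver the shares were 40.1% ± 10.9 and 56.4% ± 11.1, and the summed lipin level was 58.9 ± 7.41 FPKM against 125 ± 21.4 FPKM in WT. The sum reached at most 64.1 FPKM in MlklAdi-KO HFD livers and was at least 103 FPKM in WT HFD livers. Lpin3 stayed between 1.10% and 4.30% of the sum in every HFD liver. In visWAT, Lpin1 made up between 84.0% and 90.2% of lipin mRNA on average, with Lpin3 rather than Lpin2 next in every group.

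**Figure D1:**
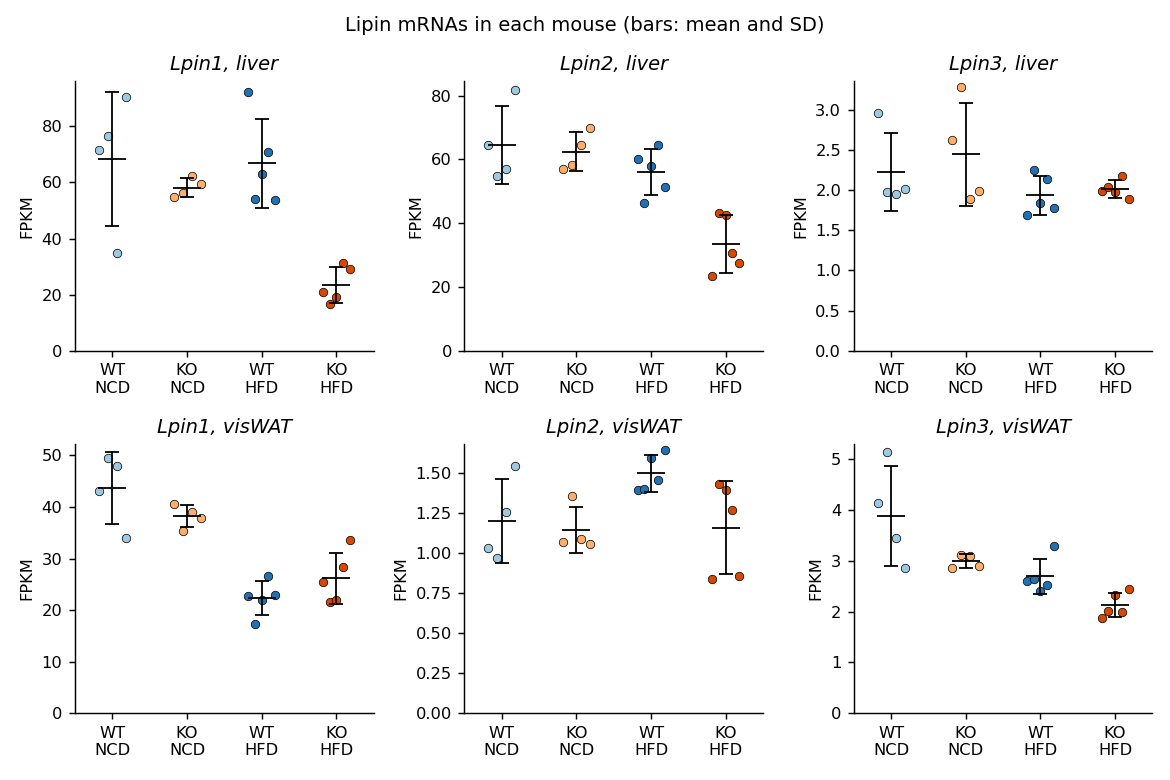
FPKM of Lpin1, Lpin2 and Lpin3 (y axis) in every mouse of the 8 groups (x axis), with liver above and visWAT below, and bars at the mean and SD. The 5 MlklAdi-KO HFD livers lay below all WT HFD livers for Lpin1 and Lpin2, whereas Lpin3 overlapped, and Lpin1 in visWAT was lower on HFD in both genotypes.

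The central comparison asked whether these genes differed in liver between HFD-fed mice with and without Mlkl deleted in adipocytes. The paper reports that on HFD the MlklAdi-KO mice gained less weight and fat than WT and had less liver triglyceride. The part of body weight or steatosis in the values below was not tested. Lpin1 was lower in MlklAdi-KO HFD liver and was the only member that passed the test. The 5 MlklAdi-KO livers held 20.9 (mouse 151), 16.7 (152), 19.0 (153), 31.2 (156) and 29.3 (157) FPKM of Lpin1, behind which stood between 3039 and 5386 reads. The 5 WT livers held 92.4 (154), 54.1 (155), 63.0 (161), 70.8 (162) and 53.7 (164) FPKM. No MlklAdi-KO value reached the lowest WT value, and the WT mean was 2.85-fold higher. The log2 fold change, on the scale of log2(FPKM + 1) used throughout, was −1.48 ± 0.20 (SE; limma adjusted p = 0.0171 over 13215 genes; 2-sided exact permutation p = 0.00794, the smallest that 5 against 5 allows). Lpin1 had already been singled out in these same livers, so these p-values are not independent evidence.

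Of all genes tested in this comparison, 26 of 13215 (0.197%) passed at an adjusted p under 0.05, and 9 (0.0681%) were lower, among them Lpin1. With libraries scaled to an equal FPKM sum the split of 17 higher and 9 lower genes became 12 and 15, and Lpin1 was −1.55 (limma adjusted p = 0.00924). The call had little room. Leaving out each mouse in turn gave log2 fold changes between −1.59 and −1.36, and 6 of 10 such fits kept Lpin1 under the threshold, whereas the adjusted p rose to 0.063 without mouse 151, 0.0515 without 153, 0.0564 without 161 and 0.0547 without 162. Count models on the reads gave adjusted p = 0.00832 (edgeR, which called 0.204% of genes) and 1.2e-12 (DESeq2), and without a filter on low genes the limma adjusted p was 0.0591.

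Lpin2, the other main lipin of liver, was lower on average but did not pass. It was at 23.3 (mouse 151), 43.3 (152), 42.4 (153), 30.8 (156) and 27.4 (157) FPKM in MlklAdi-KO HFD livers and between 46.2 and 64.5 FPKM in WT. The groups did not overlap, with a log2 fold change of −0.76 ± 0.17 (limma adjusted p = 0.119; exact permutation p = 0.00794). DESeq2 placed it under the threshold (adjusted p = 0.00132), as it did 1.96% of all genes, and edgeR did not (0.0981). Lpin3 was 2.02 ± 0.107 against 1.94 ± 0.242 FPKM, a log2 fold change of 0.04 with a 95% interval from −0.10 to 0.18 (limma adjusted p = 0.851).

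Mogat1 was the other member without overlap. Its level in MlklAdi-KO HFD livers was 1.26 (mouse 151), 3.31 (152), 3.39 (153), 1.07 (156) and 0.981 (157) FPKM, from 25 to 99 reads, and the lowest WT value was 3.54 FPKM. The log2 fold change was −0.93 ± 0.25 (limma adjusted p = 0.188; exact permutation p = 0.00794; DESeq2 adjusted p = 0.0611). In this comparison 1.24% of all tested genes were lower without overlap, and 3 of 10 members were, Lpin1, Lpin2 and Mogat1.

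None of the remaining steps passed between genotypes on HFD, and their values lay closer to 0. Gpam, the mitochondrial acyltransferase, was 52.8 ± 11.01 against 58.4 ± 9.80 FPKM (log2 fold change −0.15, 95% interval −0.48 to 0.17), and Gpat3 was 4.10 ± 1.61 against 4.56 ± 0.290 FPKM (−0.18, −0.58 to 0.22). Agpat2 was 140 ± 13.8 against 131 ± 16.1 FPKM (0.10, −0.10 to 0.30). Dgat1 was 9.90 ± 1.0005 against 10.4 ± 0.103 FPKM (−0.07, −0.21 to 0.06), and Dgat2, the most abundant member in liver, was 362 ± 42.4 against 318 ± 24.3 FPKM (0.19, interval reaching up to 0.37). Pnpla3 was at or under 2.34 FPKM in every HFD liver, with 4 to 68 reads, which leaves a wide interval (−0.27, −0.85 to 0.32). Over these 6 genes the limma adjusted p ran from 0.397 to 0.732.

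**Figure D2:**
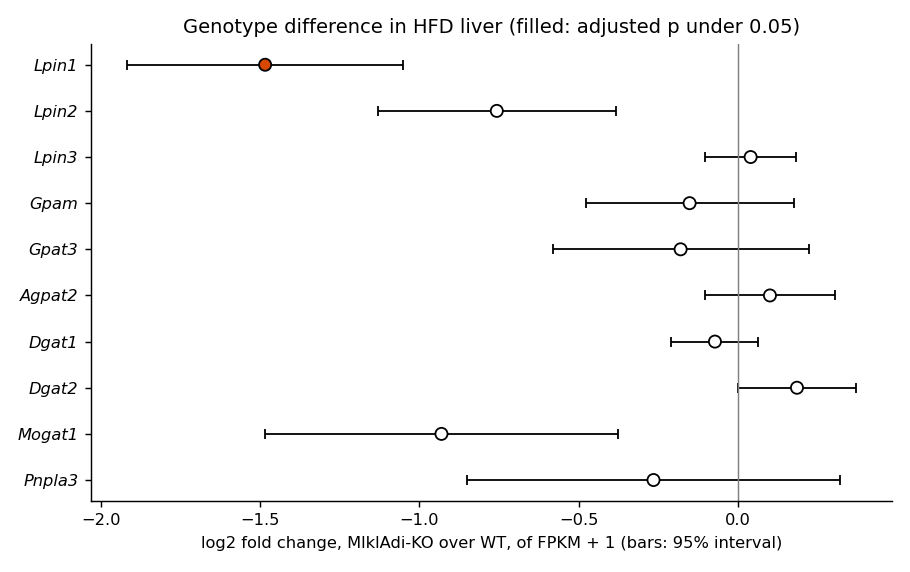
Log2 fold change of FPKM + 1, MlklAdi-KO over WT in HFD liver, for the 10 members (points) with 95% intervals (bars, x axis in log2 units). Lpin1 is the filled point, at −1.48, and the intervals of Lpin2 and Mogat1 also lie below 0.

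Since a difference past the threshold for 1 gene and not for another is no test of their difference, the log2 ratio of Lpin1 to each other member was compared per mouse. Of 9 ratios, 8 were lower in MlklAdi-KO HFD liver at an unadjusted exact permutation p under 0.05, and 6 did so without overlap, each at the smallest p of 0.00794. Those 6 were the ratios to Lpin3 (difference −1.52), Gpam (−1.33), Gpat3 (−1.30), Agpat2 (−1.58), Dgat1 (−1.41) and Dgat2 (−1.67). The ratio to Lpin2 fell by 0.73 on the log2 scale (exact permutation p = 0.0159) with overlapping groups, from 0.23 ± 0.22 in WT to −0.50 ± 0.67. The ratio to Mogat1 differed by −0.55 (exact permutation p = 0.310), and that to Pnpla3 by −1.22 (exact permutation p = 0.0317; 0.190 with a pseudocount of 0.1 and 0.0873 with an equal FPKM sum). All 9 ratios share the Lpin1 values and are not independent of each other. Lpin1 had been singled out for its fall in these same livers, so a lower ratio to an unchanged gene was largely given in advance. The p-values of the ratios are therefore not independent evidence.

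Within MlklAdi-KO HFD livers the members did not order the mice alike. Mice 152 and 153 had the lowest Lpin1 (16.7 and 19.0 FPKM) but the highest Lpin2 (43.3 and 42.4), Mogat1 (3.31 and 3.39), Gpat3 (5.68 and 5.99) and Gpam (68.1 and 58.8). Their Lpin1 share of lipin mRNA was 26.9% and 29.9%, against 45.2%, 48.6% and 49.99% in mice 151, 156 and 157. Mouse 152 also had the highest sum of macrophage markers of the HFD livers, 178 FPKM against 47.0 to 95.8 FPKM in the other 9, while mouse 153 was at 69.1 FPKM. Over the marker lists between genotypes in HFD liver, 0 of 5 tested adipocyte markers passed (median log2 fold change −0.57), as did 0 of 6 fibroblast and mesothelium markers (−0.62) and 0 of 7 macrophage markers (0.0071). Sums over the adipocyte list were 549 to 856 FPKM in MlklAdi-KO and 712 to 1131 FPKM in WT HFD liver. That list includes Pck1, so in liver neither its sum nor its median measures adipocytes. Fibroblast and mesothelium sums were 5.22 to 14.4 and 8.64 to 55.0 FPKM. Whether these bear on the members was not tested.

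**Figure D3:**
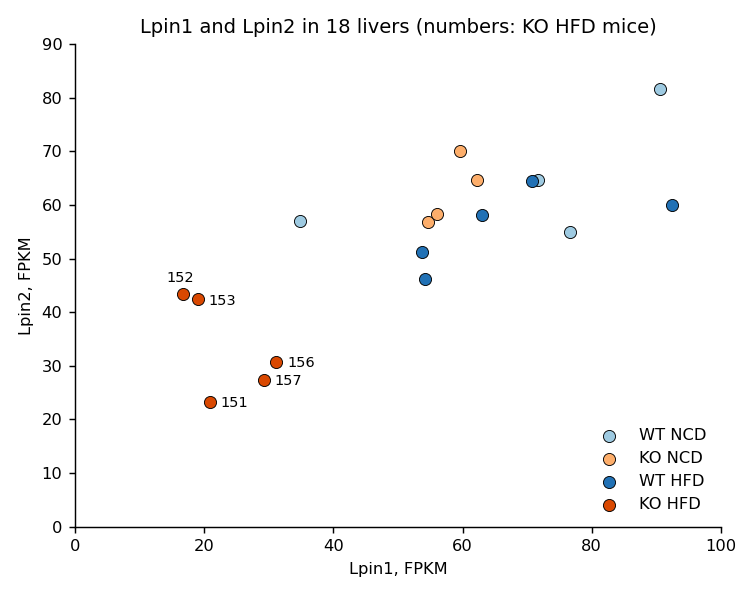
Lpin1 (x axis) against Lpin2 (y axis), both in FPKM, in each of 18 livers coloured by group, with MlklAdi-KO HFD mice numbered. The 5 MlklAdi-KO HFD livers lie apart at the lower left, and among them mice 152 and 153 have the lowest Lpin1 and the highest Lpin2.

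The other genes of the pathway gave no call in this comparison. None of 14 tested genes of glycerolipid synthesis outside the members passed, their log2 fold changes running from −0.37 to 0.19 with a median of 0.03 against 0.0017 over all tested genes. The same held for Ctdnep1 and Cnep1r1, the phosphatase complex that acts on lipins (0.06 and −0.05), for 15 genes of the phospholipid branch (−0.23 to 0.20) and for 12 regulators of these genes (−0.57 to 0.38). Before adjustment 2, 0, 4 and 3 genes of these lists were under 0.05, as were 1664 of all 13215 genes (12.6%). Of 11 tested droplet assembly genes 0 passed, with log2 fold changes from −2.40 to −0.01, a median of −0.33 and 4 genes under 0.05 before adjustment. The most negative are given here after their values were seen. Cidea, a droplet fusion protein, was 6.46 ± 6.25 against 26.5 ± 8.71 FPKM (log2 fold change −2.40, limma adjusted p = 0.192), and Cidec, of the same family, was 35.6 ± 32.6 against 78.1 ± 16.2 FPKM (−1.63, limma adjusted p = 0.297).

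Fasting, feeding, glucocorticoid and clock gene lists were examined beside Lpin1 because the gene is known to respond to such cues. Igfbp1, a fasting-induced binding protein for insulin-like growth factors, was lower, at 12.7 ± 3.84 against 36.4 ± 8.19 FPKM (log2 fold change −1.49, limma adjusted p = 0.0401), and was the only 1 of 13 fasting response genes that passed. Of 10 feeding response genes, 11 glucocorticoid response genes, 4 tested genes of the clock arm with Bmal1 and 11 of the arm with Dbp, 0 passed in limma. At an unadjusted p under 0.05 these lists had 4, 1, 2 and 6 genes, beside the same 12.6% of all genes. DESeq2 placed 3 genes of the Dbp arm under the threshold, named here after their values were seen, Nr1d1, Bhlhe41 and Dbp, with log2 fold changes in limma of 0.36, 0.51 and 0.46.

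On NCD, no member passed between genotypes in liver in limma, edgeR or DESeq2, none was under 0.05 before adjustment, and 1 of 13193 genes (0.00758%) passed in limma and 0.144% in DESeq2. Lpin1 was 71.6 (mouse 165), 76.6 (180), 34.8 (182) and 90.6 (183) FPKM in WT and 54.7 (166), 56.1 (179), 62.3 (197) and 59.6 (199) FPKM in MlklAdi-KO. Its log2 fold change was −0.15 with a 95% interval from −0.74 to 0.44, wide because of mouse 182, without which it was −0.44 (limma adjusted p = 0.42). The liver of mouse 182 also had the lowest Dgat2 and Agpat2 and the highest Gpat3 of its group, and the highest fibroblast and mesothelium marker sum of the livers, 62.9 FPKM. Its part in these values was not tested.

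The test of whether the genotype difference itself depended on diet did not pass for any member in limma. For Lpin1 the interaction was −1.33 ± 0.34 on the log2 scale (limma adjusted p = 0.249, unadjusted 0.00109), and for Lpin2 and Mogat1 it was −0.72 and −0.96 (limma adjusted p = 0.497 and 0.619). Only 2 of 13248 genes (0.0151%) passed this test in limma. DESeq2 called Lpin1 in it (adjusted p = 0.0192), together with 0.438% of all genes, and edgeR did not (0.219). Leaving out each mouse gave interaction values for Lpin1 between −1.49 and −1.04.

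HFD itself changed several steps in liver, among them Dgat2, Gpam and Pnpla3 in both genotypes. In WT liver 4 of 10 members passed, beside 25.3% of all genes, and in MlklAdi-KO liver 6 passed, beside 22.2%. These comparisons share the MlklAdi-KO HFD or WT HFD livers with the genotype comparison above. Dgat2 rose from 197 ± 46.0 to 318 ± 24.3 FPKM in WT (log2 fold change 0.72, limma adjusted p = 0.0103) and from 198 ± 16.5 to 362 ± 42.4 FPKM in MlklAdi-KO (0.87, limma adjusted p = 0.000345). Gpam fell in both, by 0.82 in WT and by 0.78 in MlklAdi-KO on the log2 scale (limma adjusted p = 0.0192 and 0.0367). The Gpam calls were fragile. In WT the limma adjusted p was 0.0536 without mouse 165, and in MlklAdi-KO 2 of 9 fits that left out a mouse kept the call (limma adjusted p up to 0.0854). Pnpla3 fell the most, from 7.11 ± 4.79 to 0.917 ± 0.884 FPKM in WT (−2.02, limma adjusted p = 0.00704) and from 3.71 ± 1.40 to 0.494 ± 0.266 FPKM in MlklAdi-KO (−1.63, limma adjusted p = 0.000455).

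Agpat2 rose in MlklAdi-KO liver (0.49, limma adjusted p = 0.0033) and was 0.38 in WT (limma adjusted p = 0.102; 0.22 without mouse 182, limma adjusted p = 0.136). Gpat3 passed in WT alone and barely (0.52, limma adjusted p = 0.0486), with 0.60 in MlklAdi-KO (limma adjusted p = 0.11), and the WT call was lost in 8 of 9 fits that left out a mouse. Dgat1, whose enzyme shares the final step with Dgat2, stayed within 0.07 log2 units of its NCD level in both genotypes, and its share of Dgat1 and Dgat2 mRNA was 5.12% ± 1.01 in WT NCD and 3.19% ± 0.260 in WT HFD liver.

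Lpin1 and Lpin2 passed between diets in MlklAdi-KO liver and not in WT liver. Lpin1 was 0.02 in WT liver (95% interval −0.59 to 0.62, limma adjusted p = 0.971) and fell by 1.32 in MlklAdi-KO liver (limma adjusted p = 0.000774), where the 5 HFD livers lay below the 4 NCD livers. Lpin2 was −0.19 in WT (limma adjusted p = 0.321) and fell by 0.92 in MlklAdi-KO (limma adjusted p = 0.00579). These pairs of values are given side by side, and the test of their difference is the interaction above. Without mouse 182 the WT value of Lpin1 was −0.27.

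Around these members, WT HFD liver had higher Cidea (3.05), Plin4 (2.66), Cidec (2.63) and Fitm2 (0.75), all droplet proteins, and 5 of 11 droplet assembly genes rose in all. In MlklAdi-KO liver 1 of 11 passed as higher, Fitm2 (0.68). Cidea (1.62), Plin4 (1.75) and Cidec (1.53) were also higher there on average but did not pass (limma adjusted p = 0.200, 0.0759 and 0.180). Of all genes 1755 of 13330 rose in WT liver and 1563 of 13149 in MlklAdi-KO liver. The interaction of genotype with diet passed for 0 of these 11 genes in limma (lowest adjusted p 0.944, 0 under 0.05 unadjusted), so a difference between the genotypes was not shown. Gpat4 (0.50 and 0.64) and Agpat1 (0.40 and 0.68), which encode other acyltransferases of the same steps, rose in WT and in MlklAdi-KO liver. Plpp1 (−0.82 and −0.66) and Plpp2 (−0.69 and −0.73), phosphatases that can also dephosphorylate phosphatidic acid, fell in both. The WT call of Plpp2 was marginal (limma adjusted p = 0.0419) and was lost with libraries scaled to an equal FPKM sum (limma adjusted p = 0.0768). In both genotypes 7 of 11 genes of the clock arm with Dbp rose and 1 fell on HFD. The part of feeding time or time of day in the liver values was not tested.

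In visWAT, where Mlkl was deleted, no member passed between genotypes on either diet. On HFD, Dgat1 was 70.3 ± 16.5 FPKM in MlklAdi-KO and 50.9 ± 3.68 FPKM in WT (log2 fold change 0.43, limma adjusted p = 0.221), and Gpat3 was 15.0 ± 5.38 against 9.92 ± 1.65 FPKM (0.49, limma adjusted p = 0.223). Mogat1 was 3.96 (mouse 151), 2.74 (152), 2.54 (153), 8.01 (156) and 7.77 (157) FPKM in MlklAdi-KO and between 1.91 and 3.60 FPKM in WT (0.58, limma adjusted p = 0.243). Lpin1 was 26.2 ± 4.97 against 22.3 ± 3.28 FPKM (0.21, 95% interval −0.09 to 0.52), opposite in sign to the liver value. Before adjustment 4 of 10 members were under 0.05, as were 3003 of 13963 genes, and 0.0215% of genes passed after it. Mice 151, 156 and 157 were highest for Dgat1, Gpat3 and Mogat1 in MlklAdi-KO HFD visWAT and mice 152 and 153 lowest. Macrophage marker sums were 1393, 701 and 631 FPKM in mice 151, 156 and 157 and 2121 and 2261 FPKM in mice 152 and 153, and adipocyte marker sums were 9846, 12218 and 11631 against 5734 and 5348 FPKM. Between genotypes the median log2 fold change was −0.85 over 9 macrophage markers and 0.47 over 9 adipocyte markers, 0 of each passing. The part of cell makeup in these values was not tested.

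On NCD, the visWAT log2 fold changes between genotypes ran from −0.47 for Agpat2 to 0.32 for Gpat3 with limma adjusted p of at least 0.916, and 0 of 14063 genes (0%) passed in limma, 528 being under 0.05 unadjusted and 8 (0.0569%) passing in DESeq2. Agpat2 rested on mouse 182, at 889 FPKM against 139 to 297 in the other 3 WT mice. Without mice 182 and 183 its value was 0.03.

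HFD lowered most members in visWAT. In WT mice 7 of 10 passed, all lower (15.8% of all genes were called lower and 37.8% in either direction), and in MlklAdi-KO mice 6 of 10, all lower (20.3% lower, 43.7% in either direction). Mogat1 fell the most, from between 12.2 and 21.8 FPKM in WT NCD mice to between 1.91 and 3.60 FPKM in WT HFD mice (log2 fold change −2.25 ± 0.18, limma adjusted p = 1.22e-05), and from 17.8 ± 1.20 to 5.01 ± 2.69 FPKM in MlklAdi-KO (−1.76 ± 0.29, limma adjusted p = 0.00169). Pnpla3 fell from 309 ± 97.8 to 79.3 ± 11.4 FPKM in WT (−1.91, limma adjusted p = 8.44e-05) and from 232 ± 56.1 to 83.5 ± 18.3 FPKM in MlklAdi-KO (−1.45, limma adjusted p = 0.00073).

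At the entry to the pathway, Gpam fell from 41.7 ± 18.7 to 13.0 ± 2.08 FPKM in WT visWAT (−1.52, limma adjusted p = 0.00157) and from 37.9 ± 6.71 to 16.5 ± 5.27 FPKM in MlklAdi-KO (−1.18, limma adjusted p = 0.00259). Gpat3 fell alongside, by 1.25 in WT and by 1.08 in MlklAdi-KO (limma adjusted p = 0.000454 and 0.00402), so that Gpam kept between 52.8% and 60.4% of their summed mRNA in all 4 visWAT groups. Lpin1 fell by 0.94 in WT (limma adjusted p = 0.000728) and by 0.55 in MlklAdi-KO (limma adjusted p = 0.00741). Lpin3 fell by 0.39 and by 0.35 (limma adjusted p = 0.0433 and 0.00293), though the WT call was lost in 6 of 9 fits that left out a mouse. Dgat1 fell in WT (−0.75, limma adjusted p = 0.0109) and was −0.35 in MlklAdi-KO (limma adjusted p = 0.111). Lpin2, Agpat2 and Dgat2 passed in neither genotype, Dgat2 standing at 564 ± 34.6 FPKM in WT HFD and 589 ± 213 FPKM in WT NCD visWAT. No member passed the visWAT interaction of genotype with diet in limma, edgeR or DESeq2, and 0% of 14136 genes did in limma, 1867 being under 0.05 before adjustment. Without mice 182 and 183 this stayed at 0 members in limma, with adjusted p of at least 0.518.

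Markers of other cell types moved with these visWAT changes. All 9 tested macrophage markers rose on HFD in both genotypes, their sum going from between 166 and 262 FPKM to between 1711 and 2498 FPKM in WT and from between 225 and 397 to between 631 and 2261 FPKM in MlklAdi-KO, while adipocyte markers had median log2 fold changes of −0.77 and −0.47. In a bulk library fewer adipocytes and less mRNA per adipocyte cannot be told apart, and the part of cell makeup was not tested. Without mice 182 and 183 the WT values were −1.03 for Lpin1, −0.61 for Lpin3, −1.48 for Gpam, −1.51 for Gpat3, −0.79 for Dgat1, −2.39 for Mogat1 and −1.80 for Pnpla3, all passing, Lpin2 passed as higher (0.32), and Agpat2 went from −0.65 to −0.14, passing in neither. The calls over all genes were then 3901 higher and 3394 lower. The WT values also depended on the scaling. With every library scaled to an equal FPKM sum the median of all genes in the WT comparison moved to 0.34, and Gpam (−1.07), Mogat1 (−1.87) and Pnpla3 (−1.43) still passed as lower, Lpin2 passed as higher (0.47), and Lpin1 (−0.48), Lpin3 (−0.05), Gpat3 (−0.81) and Dgat1 (−0.28) did not pass. The split of all called genes went from 3108 higher and 2239 lower to 3990 and 228. Without mice 182 and 183, the same scaling moved the median to 0.10 and all 7 members passed as lower again, with Lpin2 (0.39) and Dgat2 (0.29) higher. In MlklAdi-KO the same 6 members passed on both scales.

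**Figure D4:**
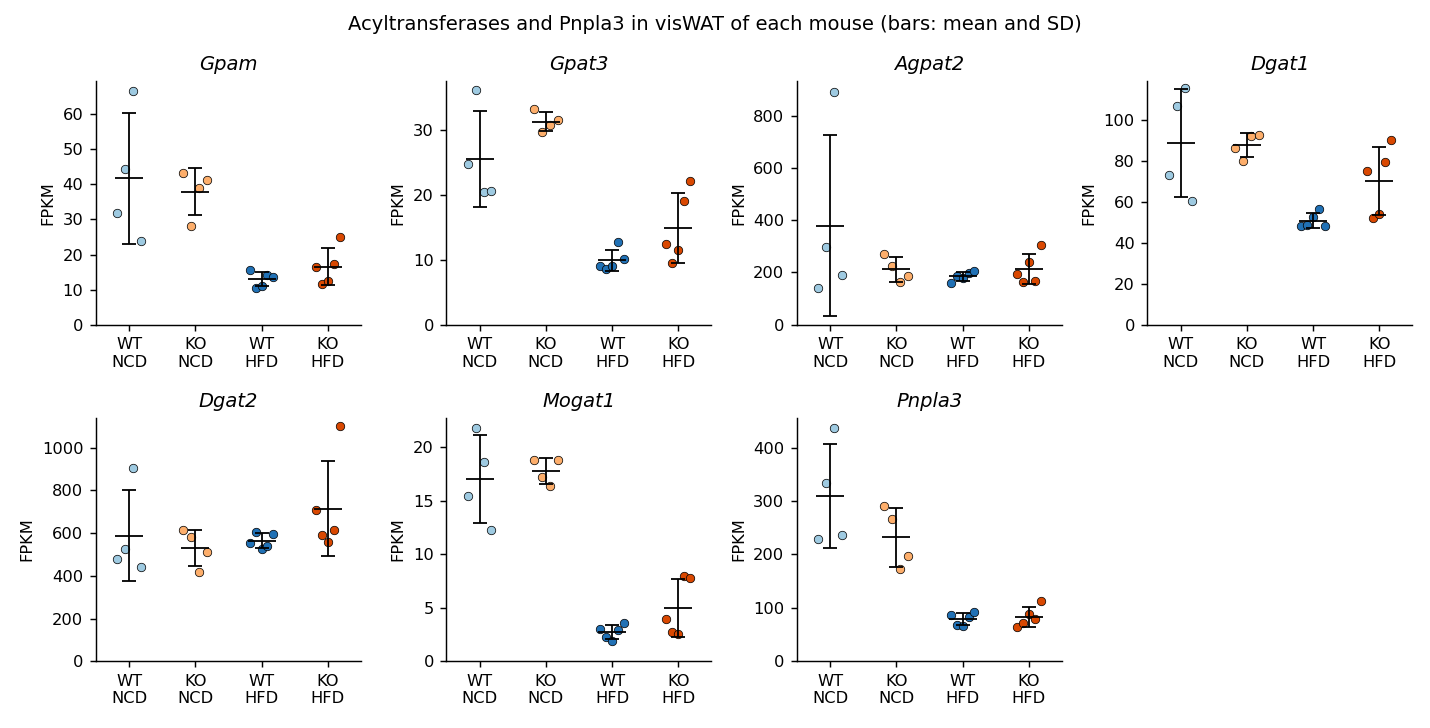
FPKM of the 7 members other than lipins (y axis, 1 panel a gene) in visWAT of every mouse by group (x axis), with bars at the mean and SD. In FPKM, Gpam, Gpat3, Mogat1 and Pnpla3 passed as lower on HFD in both genotypes, and Agpat2 and Dgat2 passed in neither. Mouse 182 was the highest WT NCD point for Agpat2 and Dgat2. With libraries scaled to an equal FPKM sum, WT NCD and WT HFD overlapped for Gpam and Gpat3.

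Among the other glycerolipid synthesis genes in visWAT, Mogat2, a further monoacylglycerol acyltransferase, rose on HFD where Mogat1 fell (1.22 in WT, limma adjusted p = 0.0081, and 1.53 in MlklAdi-KO, limma adjusted p = 0.0033). Gpat4 fell (−0.92 and −0.72) as Gpam and Gpat3 did, and Agpat4 rose (0.96 and 0.61). In all, 2 of 14 such genes rose and 3 fell in WT, and 6 rose and 4 fell in MlklAdi-KO. Of 11 tested regulators, 5 fell and 1 rose in WT and 6 fell and 1 rose in MlklAdi-KO, among them the lipogenic transcription factors Mlxipl (−1.76 and −1.31) and Srebf1 (−1.24 and −0.92), both lower. The droplet protein Plin2 rose (1.65 and 1.63) and Plin1, which coats adipocyte droplets, fell (−0.77 and −0.57). With libraries scaled to an equal sum, the WT values of Gpat4 (−0.47), Srebf1 (−0.77) and Plin1 (−0.29) kept their sign and did not pass.

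**Figure D5:**
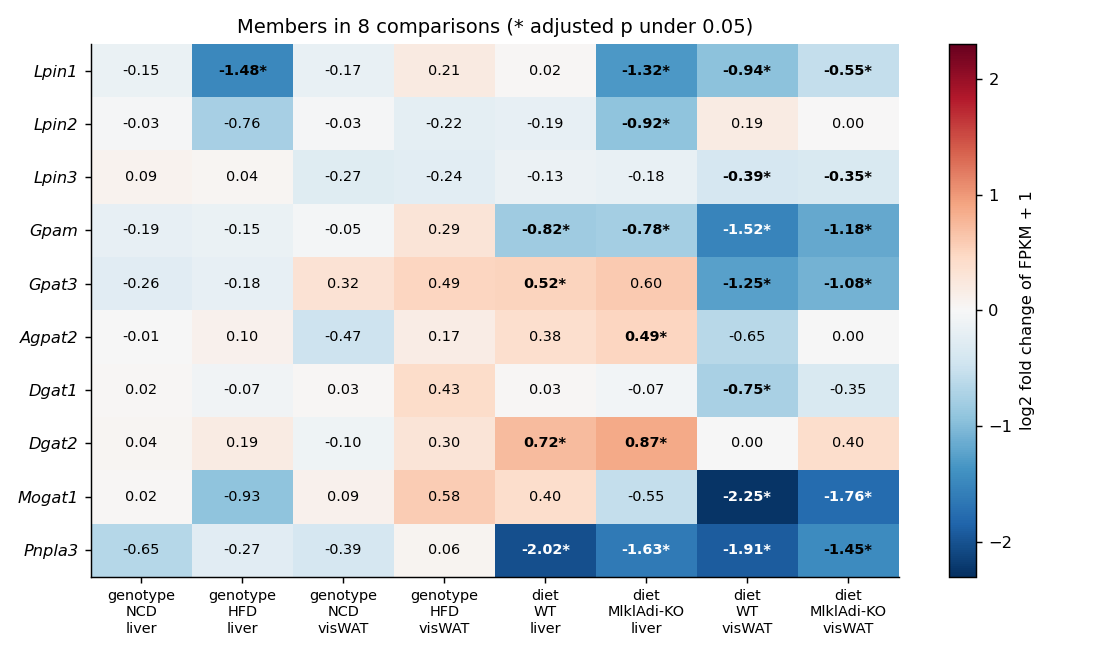
Log2 fold change of FPKM + 1 (colour and number) of the 10 members (rows) in the 4 genotype comparisons (MlklAdi-KO over WT) and the 4 diet comparisons (HFD over NCD), with * where the limma adjusted p was under 0.05. Lpin1 in HFD liver is the only call between genotypes, and calls between diets are mostly falls in visWAT.

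Liver and visWAT held the members of each family in different proportions. In WT NCD mice Dgat2 still made up most of Dgat1 and Dgat2 mRNA in both tissues, 94.9% in liver and 86.6% in visWAT. Gpam likewise made up 97.1% and 60.4% of Gpam and Gpat3 mRNA. In WT mice 9 of 10 members differed between the tissues on NCD and all 10 on HFD, where 65.5% and 84.6% of all genes were called. Lpin2 was 4.88 and 4.50 log2 units lower in visWAT on NCD and HFD. Gpam was lower in visWAT by 1.38 and 2.09 (−0.74 on NCD with an equal FPKM sum, limma adjusted p = 0.19), while Gpat3 was higher by 2.74 and 0.96 and made up 39.6% ± 10.8 of their summed mRNA in WT NCD visWAT against 2.93% ± 1.56 in WT NCD liver. Pnpla3 was higher in visWAT by 5.38 and 5.49. In ratios of mean FPKM, without the pseudocount, Pnpla3 was 43.5-fold and 86.5-fold higher in visWAT, and Lpin2 was 53.7-fold and 37.3-fold higher in liver. Dgat1 (2.96 and 2.18), Dgat2 (1.55 and 0.83), Agpat2 (1.52 and 0.50) and Lpin3 (0.59 and 0.33) were higher in visWAT on both diets.

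Lpin1 was lower in visWAT on HFD (−1.52, limma adjusted p = 1.75e-06) and −0.57 on NCD (limma adjusted p = 0.109), where it passed without mice 182 and 183 (−0.67, limma adjusted p = 0.00413) and was 0.07 with libraries scaled to an equal sum. Mogat1 was higher in visWAT on NCD (2.12) and lower on HFD (−0.53, limma adjusted p = 0.00501), though with libraries scaled to an equal sum the latter was 0.32 and did not pass (limma adjusted p = 0.0782). That scaling moved the median of all genes by 0.48 on NCD and 0.82 on HFD, and the split of called genes went from 4580 higher and 4947 lower to 6009 and 2084 on NCD and from 6101 and 6313 to 11089 and 2704 on HFD. With mouse as a block Agpat2 no longer passed on NCD (limma adjusted p = 0.0682), nor did it without mice 182 and 183 (0.88, limma adjusted p = 0.0959). Leaving out 1 mouse also ended the NCD calls of Agpat2 (limma adjusted p = 0.115) and Lpin3 (0.0706) without mouse 180 and of Gpam (0.0576) without mouse 165.

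The genes whose levels followed Lpin1 most closely differed by tissue. Over the 18 livers they were Ip6k2 (Pearson r = 0.895, Spearman rho = 0.862), Arrdc2 (0.822, 0.884), Tvp23b (0.799, 0.829), Rabgef1 (0.798, 0.761) and Gin1 (0.781, 0.874), out of 11057 genes. Ip6k2, an inositol hexakisphosphate kinase, was 8.34 ± 1.59 FPKM in MlklAdi-KO HFD liver and 19.6 ± 3.44 FPKM in WT HFD liver. Over the 18 visWAT libraries they were Fmo1 (r = 0.972, rho = 0.961), Pfkfb1 (0.968, 0.969), Car5b (0.967, 0.963), Pccb (0.966, 0.940) and Mical3 (0.964, 0.948), out of 12183 genes. These libraries share the group differences and the scaling, and the coefficients are descriptive. After each group was centred on its own mean, r was between 0.52 and 0.61 for the 5 liver genes and between 0.83 and 0.90 for the 5 visWAT genes.

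Among the members, the closest to Lpin1 in liver was Lpin2 (r = 0.761, rho = 0.798), but within groups its r was 0.095. Within liver groups Dgat2 (0.829) and Dgat1 (0.691) followed Lpin1 more closely, and Gpat3 ran opposite to it (−0.619), while over all 18 livers their r was −0.350, 0.584 and −0.363. The WT NCD liver of mouse 182 was the lowest of its group for Lpin1 (34.8 FPKM), Dgat2 (128) and Dgat1 (9.06) and the highest for Gpat3 (4.66). Within-group values without that liver are not given. In visWAT the closest were Gpam (r = 0.957), Mogat1 (0.950) and Gpat3 (0.915), with 0.828, 0.802 and 0.797 within groups, and Lpin2 was at −0.549.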

How the data were processed

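RNA-seq libraries were prepared by poly(A) selection from visWAT and liver of 18 mice. The authors trimmed reads with fastp, aligned them with HISAT2 to the mouse genome (mm39 in the submitters' processing notes) and counted them per gene with featureCounts 1.5.0-p3. The deposited tables give counts per gene and FPKM values. FPKM was used as deposited by the authors, and its low values were whole multiples of 1 read. Deposited counts covered only 812 to 3730 genes per library, and the size of each library was set from them. Reads recovered with that size equalled these counts for 100% of values. Over all genes, the recovered reads were whole numbers for 100% of values (tolerance 0.01). Whether counting used strand is not given in the sources used here. The authors' fold changes and p-values were not used, nor were 72 further columns of values per sample.

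Each comparison used limma 3.58.1 (R 4.3.3) on log2(FPKM + 1) in the groups compared, over genes whose mean reached 0.5 FPKM, with Benjamini-Hochberg adjustment over all genes tested and a threshold of 0.05. Single members and ratios were also tested by 2-sided exact permutation. The procedure was tested on simulated data. Alternatives were edgeR 4.0.16 and DESeq2 1.42.0 on the recovered reads, a pseudocount of 0.1, other filters, all 4 groups in 1 fit, libraries scaled to an equal FPKM sum, and each mouse left out. Liver and visWAT came from the same mouse, so the tissue comparison was also fitted with mouse as a block; deviations from group means correlated between tissues of a mouse at −0.05 to 0.06. The members and gene lists were chosen with earlier results of these data known. Named were the members, Mlkl, up to 6 genes of a pathway list past the threshold, companion genes past it between genotypes in HFD liver, and the 5 genes correlating best with Lpin1 in each tissue. Mice of a group were separate animals.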

Additional observations from a re-analysis of the deposited data

Results flagged for a closer look

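In 6 of 80 groups of 4 or 5 mice, 1 mouse lay far from the others by Dixon's criterion, which chance alone meets in about 1 in 20 groups. Lpin2 in MlklAdi-KO NCD visWAT was 1.36 FPKM in mouse 179 and 1.06 to 1.09 FPKM in the others. Lpin3 was 2.96 FPKM in the WT NCD liver of mouse 165 against 1.96 to 2.02 FPKM, and 3.29 FPKM in the WT HFD visWAT of mouse 164 against 2.40 to 2.65 FPKM. Agpat2 was 159 FPKM in the WT HFD liver of mouse 164 against 117 to 128 FPKM. Dgat2 was 128 FPKM in the WT NCD liver of mouse 182 against 212 to 227 FPKM, and 1104 FPKM in the MlklAdi-KO HFD visWAT of mouse 157 against 558 to 708 FPKM.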

How the results depend on the processing

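Between genotypes in HFD liver, 1 member passed in the reported fit, 0 without a filter on low genes (Lpin1 −1.48, limma adjusted p = 0.0591) and 2 with DESeq2. Leaving out each mouse gave 0 to 1 members and −1.59 to −1.36 for Lpin1. The liver interaction went from 0 members to 1 with DESeq2. For diet, leaving out a mouse gave 2 to 4 members in WT liver and 6 to 8 in WT visWAT, and an equal FPKM sum gave 4 in WT visWAT. Of 9 Lpin1 ratios, 6 to 8 stayed under 0.05 when a mouse was left out. A pair of values turned sign with a call, Dgat2 between diets in WT visWAT, at 0.29 with an equal sum and without mice 182 and 183, and Mogat1 between tissues on HFD, at 0.32 with an equal sum. Of 2049 alternative values of members, 97 changed sign, 46 lost a call and 13 gained one. The causes were not tested.

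With the replicate block (mouse), 8 members passed between tissues on NCD and 10 on HFD, against 9 and 10 without it, and Agpat2 on NCD was the call that changed. Depth limited Pnpla3 and Mogat1 in liver, with 4 to 68 and 25 to 175 reads on HFD.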
